A study of Mus musculus with 36 samples.

Results

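Hmgcs1, Idi1, Fdps, Sqle, Lss, Dhcr7 and Srebf2 are 7 genes of cholesterol synthesis. They were chosen by name, for their place in the pathway, with earlier results of these data known. They were looked up by gene identifier among the 51912 to 55487 genes listed in 6 RNA-seq count tables of mouse sperm, round spermatids, morulae, liver, epididymal white adipose tissue (eWAT) and gastrocnemius muscle. All 7 were listed in every table. A count high enough for a test was reached by 6 of them in sperm, 7 in round spermatids, 7 in morula, 3 in liver, 4 in eWAT and 1 in gastrocnemius.

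Animal cells make cholesterol from acetyl-CoA, first along the mevalonate arm to farnesyl diphosphate and squalene and then along the sterol arm from squalene to cholesterol. SREBP-2, the product of Srebf2, is held in the endoplasmic reticulum by Insig proteins when sterols are plentiful, and is released and cut when they are scarce to switch on the enzymes of both arms and genes that bring in cholesterol from outside. The liver is a main site of this synthesis and of the conversion of cholesterol to bile acids, and the cholesterol content of the sperm membrane is known to matter for capacitation. No receptor or other uptake gene is among the 7, so uptake was read from a list of related genes.

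The study fed C57BL/6 wildtype male mice (C57BL/6N in the study's methods) for 2 weeks, from 6 weeks of age, on a high-fat diet (HFD, 60% of kcal from fat) or a low-fat diet (LFD, 10%) and collected them at 8 weeks. Cauda spermatozoa, purified by swim-up from the last part of the epididymis, gave 3 libraries on HFD and 3 on LFD. Morulae, embryos of the compacting stage, were made by in vitro fertilization of oocytes from unexposed wildtype females with the sperm of such males, were picked after 72 h of culture, and gave 3 libraries per paternal diet. Round spermatids, the haploid cells that become sperm, gave 6 libraries, and the liver, eWAT and gastrocnemius of grown offspring gave 6 each. The round spermatids came from males on both diets. The offspring tissues came from F1 mice, kept on chow all their lives, whose fathers had been fed on HFD and which were classed as glucose tolerant (HFDt) or intolerant (HFDi). The column names of these 4 tables tie no library to a diet or class, so diet was compared only in sperm and morula. Nothing in the labels says whether libraries of a group came from separate animals or embryo pools, so p-values measure the spread between these libraries, which may be technical, and liver, eWAT and muscle libraries may share animals.

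Libraries are named here by group and total count. Totals ran from 2560219 to 4062321 counts in sperm, 20138842 to 31056066 in round spermatids, 11471251 to 12153141 in morula, 2036237 to 2552454 in liver, 1338149 to 4055537 in eWAT and 369772 to 2749920 in gastrocnemius, where a count of 0 allows up to 1.09 to 8.11 CPM, the unit of counts scaled to a common library total. In sperm 78.1 to 84.3% of the counts on HFD fell on genes of the mitochondrial DNA, against 43.5 to 64.7% on LFD. Levels are therefore given as CPM scaled by TMM (trimmed mean of M values), which sets the libraries of 1 table to a common level over most genes. The labelled tissues showed their own markers: liver markers summed to 43296 to 60826 CPM in liver, fat markers to 13416 to 30200 in eWAT, muscle markers to 42193 to 75858 in gastrocnemius, spermatid markers to 8606 to 11465 in round spermatids, and pluripotency and trophectoderm markers to 578 to 682 in morula. Sperm libraries held spermatid markers (1021 to 12417 CPM) together with markers of the epididymal epithelium (2755 to 12790), and 1 eWAT library, with 3512177 counts, held spermatid markers at 64.4 CPM and Sertoli markers, mostly Sox9 and with Amh at 0, at 304, against 0.772 to 3.93 and 18.7 to 61.2 in the other 5.

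The genes lie apart from each other. In GRCm38, the build of the files, Hmgcs1 spans chr13:119690379-119708260, Idi1 chr13:8885501-8892451, Sqle chr15:59315077-59331192, Srebf2 chr15:82147181-82205379, Lss chr10:76531588-76557138 and Dhcr7 chr7:143823145-143848410, all on the plus strand, and Fdps chr3:89093588-89101959 on the minus strand. Counts are summed over the exons of a gene. Fdps shares 26.7% of its exon bases with Gm43738 on the same strand, and 55% of the last 500. Idi1 has 30.5% of its 50-base windows also in other annotated transcripts, among them those of Gm13502, so the values of both genes are less certain than those of Sqle, Dhcr7 and Srebf2, whose exons overlap no other gene.

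RefSeq promoter sequences (GRCm38.p6, 250 bases before to 50 after the start) were at hand for Hmgcs1, Idi1, Lss, Dhcr7 and Srebf2. The letters TCACNCCA, a form of the sterol element that SREBP binds, were searched on both strands and found in 2 of the 5, Hmgcs1 and Srebf2, against 4.36% of all 32851 promoters and 4.97% of their 27025 genes. In both genes the match starts before the annotated start, by 137 bases in Hmgcs1 and by 162 in Srebf2. The NF-Y box CCAAT occurred in at least 1 promoter of each of the 5 genes, against 41.1% of all genes with a promoter sequence. Among the other cholesterol genes described below, 31 had a promoter sequence, of which 1, Msmo1, held TCACNCCA and 22 held CCAAT. The windows around the match are shown because Hmgcs1 and Srebf2 are the only genes of the 5 that hold it. They cover chr13:119690161-119690260 for Hmgcs1 and chr15:82147079-82147178 for Srebf2, both on the plus strand, and the capitals mark TCACNCCA and, read on the other strand, CCAAT.
Hmgcs1: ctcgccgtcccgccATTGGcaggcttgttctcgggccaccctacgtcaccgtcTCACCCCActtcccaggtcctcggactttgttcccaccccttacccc
Srebf2: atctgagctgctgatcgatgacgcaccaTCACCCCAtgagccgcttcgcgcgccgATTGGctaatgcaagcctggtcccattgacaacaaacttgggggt
A match says only that these letters are present.

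In round spermatids the levels of most of the 7 genes varied little between libraries. The scale for comparing genes is TMM-scaled CPM per kb of exon, which suits the sperm, spermatid and morula libraries, made from whole transcripts. The length is that of all annotated exons of a gene, which can exceed its longest transcript by unequal amounts. For Dhcr7 it was 5817 against 2815 bases, for Lss 10787 against 6992 and for Sqle 5546 against 4467. Any order of genes per kb, in each table, depends on this choice of length. Sqle, squalene epoxidase and the first oxygen-requiring step of the sterol arm, was highest, at 25.3, 27.1 and 28.4 per kb (lowest, median and highest of 6 libraries). Hmgcs1, the cytosolic HMG-CoA synthase of the mevalonate arm, followed at 13.2, 15 and 15.4 per kb. Then came Srebf2, the regulator, at 8.15, 9.40 and 9.79, and Idi1, isopentenyl diphosphate isomerase, at 7.84, 8.12 and 8.63, whose libraries overlapped. Lss, lanosterol synthase, lay at 2.86, 2.92 and 3.10 per kb. Fdps, farnesyl diphosphate synthase, had 1.22, 1.41 and 1.70, and Dhcr7, the reductase that makes cholesterol from 7-dehydrocholesterol, 0.557, 0.735 and 0.994. Apart from Srebf2 and Idi1, no neighbours in this order overlapped. The median coefficient of variation of the 7 genes was 5.32%, against 10.7% over all 20345 tested genes, and those of Fdps (12.3%) and Dhcr7 (21.5%), the 2 lowest genes, were higher. This contrast was not matched for level, as the median tested gene had 7.07 CPM. Sqle, Hmgcs1, Srebf2, Lss and Idi1 had medians of 28.5 to 150 CPM, and Fdps and Dhcr7 had 5.92 and 4.28. In these bulk libraries fewer cells of a type and less RNA per cell cannot be told apart.

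Morulae showed another order on this scale, with the same limit of length, which bears most on the place of Dhcr7. Sqle was again highest per kb, at 18.3, 24.9 and 29.0 (lowest, median and highest of 6 libraries), overlapping with Hmgcs1 at 14.6, 17.6 and 18.6. Dhcr7 stood close to Hmgcs1, at 15.8, 16.3 and 17.9 per kb, whereas it was the lowest of the 7 in round spermatids. Lss lay at 7.14, 8.19 and 9.13 per kb, apart from its neighbours on both sides. Srebf2, Fdps and Idi1 closed the order with overlapping libraries, at medians of 3.21, 2.82 and 2.66 per kb. Spermatid and morula tables were normalized separately and counted against different gene models, 3233 exon bases for Hmgcs1 in spermatids against 4594 in morula, so these levels stand side by side and were not tested against each other. The coefficient of variation had a median of 10.1% over the 7 genes and of 21.3% over all 13447 tested genes. The median tested gene had 10.1 CPM and the 7 genes had medians of 9.32 to 138 CPM, so this contrast was not matched for level either.

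In sperm the values of a gene were spread more widely between libraries. Medians over the 6 libraries were 6.67 per kb for Hmgcs1, 5.12 for Sqle, 3.77 for Srebf2, 2.09 for Lss, 1.24 for Fdps, 1.10 for Dhcr7 and 0.313 for Idi1, and each gene overlapped with the next in this order. Idi1 had only 40 counts in all 6 libraries and was not tested. The median coefficient of variation was 52.3% for the 6 tested genes and 59.4% over all 8643 tested genes, again not matched for level. The plot of the 7 genes by library shows the spermatid points in tight clusters and the sperm points spread over a wide range.

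**Figure D1:**
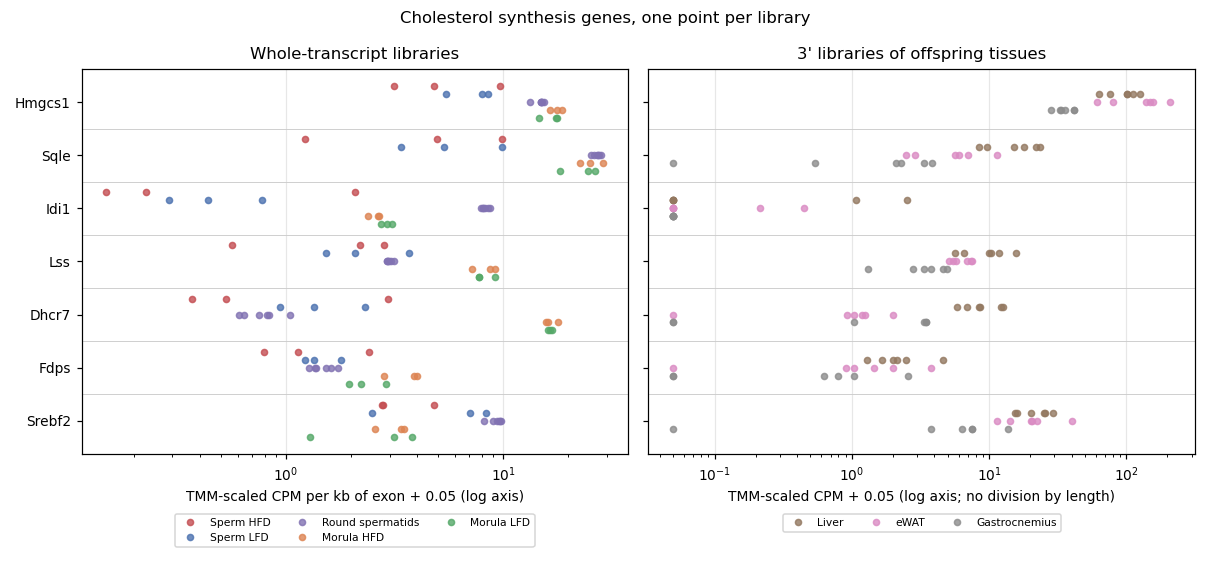
Each point is 1 library of sperm, round spermatids or morula (left, TMM-scaled CPM per kb of exon plus 0.05, log axis) or of liver, eWAT or gastrocnemius (right, TMM-scaled CPM plus 0.05 from 1 joint scaling, log axis, not divided by length), with 1 row per gene. Round spermatid points of Sqle lie between 25.3 and 28.4 per kb, sperm points of Sqle between 1.17 and 9.85, and points at the left edge of the right panel are libraries with a count of 0.

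For Cyp51 and Insig1, outside the 7 genes, levels are given as TMM-scaled CPM, by the median over the 6 libraries of a table. Cyp51, the lanosterol demethylase, had 80.2 CPM in round spermatids, 41.2 in morula and 38.8 in sperm. Insig1, which holds SREBP in the endoplasmic reticulum, had 7.32 CPM in round spermatids, 127 in morula and 11.6 in sperm.

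The first diet comparison asks whether 2 weeks on HFD changed the RNA of these genes in sperm. None of the 6 tested genes was called at an adjusted p under 0.05 (two-sided quasi-likelihood test of edgeR, adjusted over 8643 genes, of which 0% were called), and DESeq2, which called 295 of all genes, called none of the 6. No gene of the 6 had an unadjusted p under 0.05, against 13% of all tested genes (1124). All 6 had a fold change below 0 on the log2 scale, with a median of -0.33 against -0.07 over all tested genes. Without the LFD library of 2560219 counts, 4 genes had a change above 0 and 2 below, with a median of 0.093, and without the HFD library of 3679276 counts the median was -0.05. In no gene did the diets fail to overlap, against 20.3% of all tested genes.

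Hmgcs1 had 44.2, 14.2 and 21.8 CPM (TMM-scaled) in the HFD libraries of 2994295, 3679276 and 4062321 counts and 38.9, 24.8 and 36.5 in the LFD libraries of 2560219, 2913166 and 3050543 counts. The highest and the lowest value both came from HFD. The log2 fold change of Hmgcs1 was -0.34 with an SE of 0.53, an edgeR adjusted p of 0.84 and a 95% interval from -1.49 to 0.80. For Idi1 the HFD libraries held 11, 1 and 1 counts and the LFD libraries 17, 6 and 4, in the same order of libraries. The ratio of its summed counts, scaled by TMM, was 1.27, with an exact 95% interval of 0.601 to 2.55 that covers counting error only.

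Fdps ranged from 3.12 to 9.89 CPM on HFD and from 4.96 to 7.30 on LFD, so the LFD libraries lay within the range of the HFD libraries. Its log2 fold change was -0.05 (SE 0.81, edgeR adjusted p 0.99). The sign of Fdps turned under other scalings, being 0.11 with DESeq2 size factors (RLE).

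Sqle had 6.50, 54.4 and 27.4 CPM in the HFD libraries, in the order above, and 54.6, 18.5 and 29.4 in the LFD libraries. The HFD library of 2994295 counts, which was highest for Hmgcs1, was lowest for Sqle. Sqle had a log2 fold change of -0.24 (SE 0.66, edgeR adjusted p 0.92, 95% interval -1.66 to 1.18), and it was 0.21 without that library and 0.32 without the LFD library of 2560219 counts. Lss had 29.9, 5.56 and 23.2 CPM on HFD and 39.5, 16 and 21.8 on LFD, with a log2 fold change of -0.42 (SE 0.64, edgeR adjusted p 0.83). The low value of Lss came from the HFD library of 3679276 counts, and without it the change was 0.01. Dhcr7 had 16.9, 1.85 and 2.77 CPM on HFD and 13.1, 5.19 and 7.55 on LFD, with a log2 fold change of -0.32 (SE 0.89, edgeR adjusted p 0.92). As for Hmgcs1, its highest and lowest values were both from HFD libraries, and its change lay at 0.08 to 0.14 without 1 of the HFD libraries of 3679276 or 4062321 counts or the LFD library of 2560219 counts.

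Srebf2 showed the largest difference of the 7 genes. It had 19.5, 19.8 and 34.3 CPM on HFD and 50.03, 17.6 and 59.8 on LFD. In LFD, 2 libraries stood above every HFD library and the one of 2913166 counts below every HFD library. The log2 fold change of Srebf2 was -0.80 (SE 0.55, edgeR p 0.17, adjusted p 0.58, 95% interval -1.98 to 0.38).

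These values depend on how the libraries are scaled, as the plot of the diet fold changes by scaling shows. With library totals in place of TMM, Hmgcs1 had -2.17 (edgeR adjusted p 0.023), Sqle -2.23 (0.030), Lss -2.26 (0.031) and Srebf2 -2.56 (0.016), all lower on HFD. In CPM of library totals, Hmgcs1 had 6.25 to 22.7 on HFD and 37.8 to 102 on LFD, without overlap. The median of all tested genes moved to -1.84 under this scaling and 3356 of 8643 genes were called lower on HFD and 1 higher, and the median of the 6 genes was -2.25 beside it. The share of mitochondrial counts, higher in every HFD library than in every LFD library, enters the library total, and its part in these values was not tested.

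Marker levels differed between the diets too. Spermatid and spermatozoa markers summed to 4221 to 12417 CPM on HFD and 1021 to 3677 on LFD, and those of the epididymal epithelium to 4533 to 5369 on HFD and 2755 to 12790 on LFD. Leukocyte markers summed to 45.5 to 64.2 CPM on HFD against 13.5 to 25.3 on LFD. Erythroid markers summed to 249 to 462 CPM on HFD against 12.1 to 124 on LFD. The LFD library of 2560219 counts, with the highest sum of epididymal markers, had the highest Lss of all 6. Its Sqle, at 54.6 CPM, was nearly equalled by 54.4 in the HFD library of 3679276 counts. Hmgcs1 and Dhcr7 were highest in the HFD library of 2994295 counts and Srebf2 in the LFD library of 3050543 counts. The LFD library of 2913166 counts, with the lowest sum, was lowest for Srebf2 but not for Hmgcs1, Sqle, Lss or Dhcr7. The part of these cells in the gene values was not tested.

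**Figure D2:**
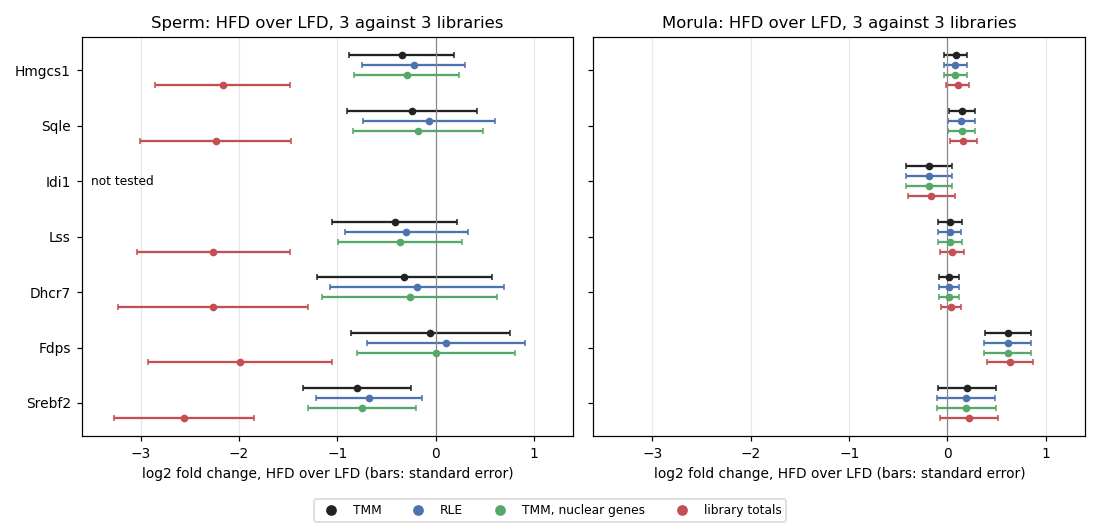
Log2 fold changes of HFD over LFD in sperm (left) and morula (right), with 3 libraries per diet, for each gene under 4 scalings: TMM, RLE (DESeq2 size factors), TMM over nuclear genes and library totals. Points are edgeR estimates and bars their standard errors. In sperm Srebf2 lies at -0.80 and the other 5 tested genes at -0.05 to -0.42 with TMM, and all 6 at -1.99 to -2.56 under library totals, while in morula the 4 scalings give nearly the same values.

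To set the 7 genes in the whole pathway, 50 genes of 5 lists were followed, the 7 included: the mevalonate arm, the sterol arm, regulators, uptake and lysosomal exit, and esterification, export and conversion. In sperm 35 of the 50 were tested, none was called, 26 had a fold change below 0 and 9 above, and their median was -0.34 on the log2 scale, against -0.07 over all tested genes. By list the median was -0.20 in the mevalonate arm, -0.32 in the sterol arm, -0.66 in regulators and -0.49 in esterification, export and conversion. The uptake list differed, with a median of 0.25 and 3 of 6 tested genes above 0. Of the 35, 2 had an unadjusted p under 0.05 in edgeR, Acat2 and Insig1, beside 13% of all tested genes. They are named because so few did, after their values were seen. Insig1 had 1.95, 6.80 and 8.32 CPM on HFD and 25.3, 14.9 and 21.0 on LFD, without overlap, with a log2 fold change of -1.83 (SE 0.67, edgeR adjusted p 0.28). Acat2, the cytosolic thiolase at the start of the mevalonate arm, had -1.41 (SE 0.52, edgeR adjusted p 0.28), and 45.9% of its 50-base windows also occur in other transcripts, mostly those of Acat3. Cyp51 had a log2 fold change of -1.12 (SE 0.63, edgeR adjusted p 0.49).

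The second diet comparison asks the same of morulae, by the diet of the father. The title and treatment field of the samples were followed, since for 3 morula samples the description field names the other diet. None of the 7 genes was called at an adjusted p under 0.05, as none of all 13447 tested genes was (0%, edgeR), and DESeq2, which called 18 of them, called none of the 7. Of the 7, Fdps alone had an unadjusted p under 0.05, against 6.38% of all tested genes, and Idi1 alone had diets that did not overlap, against 12.1%. In 6 genes the fold change was above 0 and in 1 below, with a median of 0.08 on the log2 scale against 0.01 over all tested genes. Without the LFD library of 11471251 counts, 2 were above and 5 below, with a median of -0.0052.

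In the mevalonate arm, Hmgcs1 had 75.1, 85.5 and 81.3 CPM (TMM-scaled) in the HFD libraries of 11606215, 11776603 and 12153141 counts and 67.0, 81.4 and 80.2 in the LFD libraries of 11471251, 11864264 and 12133872 counts. Its log2 fold change was 0.08 (SE 0.12, edgeR adjusted p 0.94, 95% interval -0.17 to 0.33). Idi1 had 8.15, 9.10 and 9.20 CPM on HFD and 10.1, 9.44 and 10.6 on LFD. Every HFD library of Idi1 lay below every LFD library, by little. The log2 fold change of Idi1 was -0.19 (SE 0.23, edgeR adjusted p 0.93).

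Fdps had 16.7, 16.2 and 11.7 CPM in the HFD libraries and 7.97, 12 and 9.12 in the LFD libraries. Only the lowest HFD and the highest LFD library crossed, and in CPM of library totals, at 12.2 to 17.1 against 7.85 to 11.8, they did not. The log2 fold change of Fdps was 0.62 with an SE of 0.24 and a 95% interval of 0.11 to 1.13, and it did not pass the correction (edgeR p 0.021, adjusted p 0.72). It lay between 0.49 and 0.79 under every alternative. Gm43738, which shares exon bases with Fdps, had no count in any morula library. How reads in the shared bases were assigned is not given, so this does not show whether the overlap bears on Fdps.

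In the sterol arm, Sqle had 125, 161 and 139 CPM on HFD and 101, 137 and 147 on LFD, with a log2 fold change of 0.15 (SE 0.13, edgeR adjusted p 0.90, 95% interval -0.14 to 0.43). Lss had 77.0, 98.5 and 93.3 CPM on HFD and 83.5, 98.1 and 82.7 on LFD, a change of 0.02 (SE 0.12, edgeR adjusted p 0.99). Dhcr7 had 91.7, 104 and 93.2 CPM on HFD and 95.7, 93.5 and 97.3 on LFD. The LFD values of Dhcr7 lay inside the HFD range, and its 95% interval, -0.20 to 0.23 on the log2 scale, was the narrowest of the 7.

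Srebf2 had 18.2, 23.9 and 24.7 CPM on HFD and 8.95, 27.1 and 22.2 on LFD. The LFD library of 11471251 counts stood apart at 8.95, and the same library was lowest for Hmgcs1, Sqle and Fdps. Srebf2 had a log2 fold change of 0.20 (SE 0.30, edgeR adjusted p 0.94), and -0.15 without that library. Without it, Hmgcs1 and Sqle had changes of -0.0052 and -0.0012.

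Of the 50 genes of the lists, 41 were tested in morula, 29 with a fold change above 0 and 12 below, and none was called. Their median was 0.09 on the log2 scale. By list it was 0.13 in the mevalonate arm, 0.08 in the sterol arm, 0.20 in regulators and 0.15 in uptake. In esterification, export and conversion it was -0.42, with 4 of 5 tested genes below 0. Besides Fdps, only Abca1 of the 41 had an unadjusted p under 0.05 in edgeR, beside 6.38% of all tested genes. Abca1, which exports cholesterol from cells, had a log2 fold change of -0.56 (SE 0.20, edgeR adjusted p 0.70). It was named after its value was seen. Cyp51 had 0.12 (SE 0.18) and Insig1 0.05 (SE 0.14).

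The sign of the diet effect differed between sperm and morula for 6 genes, so the difference itself was tested. An exact two-sided permutation of the diets within both experiments, over 400 arrangements with a smallest p of 0.005, gave p = 0.35 for Hmgcs1, where sperm minus morula was -0.53 on the log2 scale. For Sqle the difference was -0.67 (exact permutation p = 0.55) and for Lss -0.60 (p = 0.57, exact permutation). For Dhcr7 it was -0.74 (exact permutation p = 0.45), for Fdps -0.75 (p = 0.17, exact permutation) and for Srebf2 -0.98 (exact permutation p = 0.23). Adjusted over the 6 genes by Benjamini-Hochberg, each p was 0.57, so no difference was shown. The sperm term carries the scaling described above.

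The offspring tissues were compared with each other in 1 fit of 18 libraries, since liver, eWAT and gastrocnemius shared the 3′ kit, which reads the ends of transcripts. Levels from 1 joint TMM scaling are given as CPM without division by length, and genes are not compared with each other on this scale. Of the 7 genes, Hmgcs1, Sqle, Lss and Srebf2 were tested among 10851 genes. The filter was applied over all 18 libraries, so a gene could enter through 1 tissue alone. Within gastrocnemius only Hmgcs1 passed it, and Sqle, Lss and Srebf2 had 11, 29 and 62 counts in the 6 muscle libraries. The way Sqle, Lss and Srebf2 entered favoured calls of lower in muscle. Liver over eWAT, 2 of the 4 were called higher and none lower, where 28.9% of all tested genes were called higher and 32.7% lower. Liver over gastrocnemius, all 4 were called higher, against 34.9% higher and 31.5% lower. eWAT over gastrocnemius, all 4 were again called higher, against 41.1% higher and 26.3% lower. The median log2 fold change of the 4 genes was 0.32, 1.49 and 1.73 in these comparisons, against -0.07, 0.06 and 0.35 over all tested genes. The 3 comparisons share their libraries.

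Hmgcs1 had 63.9, 102 and 125 CPM in liver (lowest, median and highest of 6), 60.9, 145 and 210 in eWAT and 28.5, 34.4 and 41.9 in gastrocnemius. Every liver and eWAT library stood above every muscle library, while liver and eWAT overlapped. Liver over gastrocnemius, the log2 fold change of Hmgcs1 was 1.45 (SE 0.25, edgeR adjusted p 2.7e-05), and eWAT over gastrocnemius 1.92 (SE 0.25, edgeR adjusted p 6.1e-07). Liver over eWAT it was -0.48 (SE 0.23, edgeR adjusted p 0.079), and -0.65 with an adjusted p of 0.0062 without the eWAT library of 3512177 counts, which had the lowest Hmgcs1 of eWAT.

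Sqle had 8.44, 16.6 and 23.5 CPM in liver, 2.45, 5.80 and 11.4 in eWAT and 0, 2.14 and 3.78 in gastrocnemius. Liver stood above muscle in every library and overlapped with eWAT. The log2 fold change of Sqle was 3.39 liver over gastrocnemius (SE 0.54, edgeR adjusted p 6.8e-06), 1.36 liver over eWAT (SE 0.37, edgeR adjusted p 0.0024) and 2.03 eWAT over gastrocnemius (SE 0.57, edgeR adjusted p 0.0028). The highest Sqle of eWAT came from the library of 3512177 counts, the one with spermatid markers.

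Lss had 5.59, 10.1 and 15.6 CPM in liver, 5.08, 6.28 and 7.49 in eWAT and 1.26, 3.51 and 4.91 in gastrocnemius, with no overlap between muscle and the other tissues. Its log2 fold change was 1.45 liver over gastrocnemius (SE 0.33, edgeR adjusted p 0.00043). The other calls of Lss were weaker, 0.65 liver over eWAT (SE 0.27, edgeR adjusted p 0.038) and 0.80 eWAT over gastrocnemius (SE 0.32, edgeR adjusted p 0.032), and both were lost without a filter on low counts (edgeR adjusted p 0.18 and 0.070). The call of Lss liver over eWAT held in 12 of 22 alternatives, with an edgeR adjusted p of up to 0.16 when 1 liver library, that of 2552454 counts, was left out, and it was lost in 8 of the fits with 1 liver or eWAT library left out. Its call eWAT over gastrocnemius held in 17 of 22.

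Srebf2 had 15.5, 22.6 and 29.4 CPM in liver, 11.4, 20.3 and 40.4 in eWAT and 0, 6.88 and 13.8 in gastrocnemius. Liver and eWAT overlapped, with a log2 fold change of -0.0033 and a 95% interval of -0.62 to 0.61, and 0.27 (edgeR adjusted p 0.37) without the eWAT library with spermatid markers, which had the value of 40.4. Liver over gastrocnemius the change was 1.53 (SE 0.36, edgeR adjusted p 0.00072), and eWAT over gastrocnemius 1.53 (SE 0.35, edgeR adjusted p 0.00056).

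Dhcr7, Fdps and Idi1 did not pass the filter of the joint fit and were not tested in these tissues. Dhcr7 had 5.84, 8.47 and 12.7 CPM in liver, 0, 1.07 and 1.96 in eWAT and 0, 2.15 and 3.44 in gastrocnemius, so that every liver library stood above every other. Fdps had medians of 2.03 CPM in liver, 1.2 in eWAT and 0.657 in gastrocnemius, with overlapping libraries. Idi1 had 6 counts in the 6 liver libraries together, 3 in eWAT and none in gastrocnemius, where 0 counts in the smallest library allow up to 8.11 CPM. The 3′ kit reads the ends of transcripts, and what share of each transcript end the gene models cover was not tested.

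With library totals in place of TMM, the median of all genes moved to -1.01 liver over eWAT and to 1.33 eWAT over gastrocnemius. The genes called higher and lower were then 1388 and 7062 liver over eWAT, in place of 3138 and 3544, and 7413 and 1204 eWAT over gastrocnemius, in place of 4464 and 2854. Liver over eWAT, none of the 4 genes was then called higher and 2 were called lower: Hmgcs1 at -1.40 (edgeR adjusted p 7.9e-06) and Srebf2 at -0.97 (edgeR adjusted p 0.0078). Sqle lost its call at 0.41 (edgeR adjusted p 0.33), and Lss turned sign, at -0.30 (edgeR adjusted p 0.32). Liver over gastrocnemius the median of all genes was 0.10 and all 4 genes stayed called higher.

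Of the 50 list genes, 38 were tested in the joint fit. Within single tissues 29 passed the filter in liver, 33 in eWAT and 11 in gastrocnemius. Calls in the lists therefore carry the limit of the filter given above, most of all those against muscle. Calls liver over eWAT carry it for genes that passed within only 1 of these tissues. The sterol arm, Sqle and Lss included, held the highest share of genes called higher in liver, as the plot of the lists shows. Liver over eWAT, 9 of its 10 tested genes were called higher, with a median of 2.11, and liver over gastrocnemius 10 of 10, with a median of 3.28. Of all tested genes, 28.9% and 34.9% were called higher in these comparisons. Among the 9, Tm7sf2 had 25 counts in the 6 eWAT libraries and passed the filter within liver and not within eWAT. Lss passed it within eWAT and not within liver. Cyp51 had a log2 fold change of 1.87 liver over eWAT (SE 0.27, edgeR adjusted p 1.8e-06) and 3.85 liver over gastrocnemius (SE 0.36, edgeR adjusted p 2.0e-09). In the mevalonate arm 1 of 5 tested genes was called higher and none lower liver over eWAT, with 3 of 5 below 0 and a median of -0.37. There, 28.9% of all tested genes were called higher and 32.7% lower. In the same arm 4 of 5 were called higher liver over gastrocnemius, with a median of 1.45, and 3 of 5 eWAT over gastrocnemius. The shares of all tested genes called higher in these were 34.9% and 41.1%.

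Among uptake genes, 5 of 8 were called higher and 2 lower liver over eWAT, 6 higher and 1 lower liver over gastrocnemius, and 5 higher and 2 lower eWAT over gastrocnemius. In the same order, 28.9%, 34.9% and 41.1% of all tested genes were called higher, and 32.7%, 31.5% and 26.3% lower. Vldlr, the VLDL receptor, was highest in muscle, with 820 CPM in gastrocnemius (mean of 6), 49.7 in eWAT and 3.14 in liver, a log2 fold change of -8.08 liver over gastrocnemius (SE 0.41, edgeR adjusted p 5.8e-14). Npc1, which exports cholesterol from lysosomes, was lower in eWAT than in gastrocnemius, at -1.97 (SE 0.25, edgeR adjusted p 4.3e-07).

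Regulators were called higher in liver for 2 of 6 genes against eWAT, and for 3 of 6 against gastrocnemius, beside 28.9% and 34.9% of all tested genes. Against gastrocnemius 1 was lower in liver, Mbtps2, at -1.12 (SE 0.34, edgeR adjusted p 0.0056), where 31.5% of all tested genes were. In eWAT 3 of 6 were higher than in gastrocnemius, beside 41.1% of all tested genes. Insig1 was too low to test, with 0, 2.84 and 13.7 CPM in liver. Of the genes of esterification, export and conversion, 4 were higher and 3 lower of 9 liver over eWAT, 8 of 9 higher liver over gastrocnemius, and 6 higher and 1 lower eWAT over gastrocnemius. The same comparisons called 28.9%, 34.9% and 41.1% of all tested genes higher, and 32.7%, 31.5% and 26.3% lower. Cyp7a1, Abcg5 and Abcg8, with 3, 25 and 10 counts in the 6 eWAT libraries, passed the filter within liver and not within eWAT. This favoured calls of higher in liver. Abcg1 and Soat1, with 45 and 42 counts in the 6 liver libraries, passed within eWAT and not within liver, which favoured calls of lower in liver. Cyp7a1, the rate-limiting enzyme of bile acid synthesis, had 31.1 CPM in liver (mean of 6) and 0.0856 in eWAT, and no count in gastrocnemius. Abcg8, which with Abcg5 moves sterols into bile, had 57.6 CPM in liver, 0.283 in eWAT and no count in gastrocnemius, and Abcg5 31.7 and 0.916, likewise with no count in muscle. Abcg1, an exporter of cholesterol to lipoprotein particles, was lower in liver than in eWAT, at -3.20 (SE 0.38, edgeR adjusted p 1.1e-07), and higher in eWAT than in gastrocnemius, at 5.29 (SE 0.54, edgeR adjusted p 9.1e-09).

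**Figure D3:**
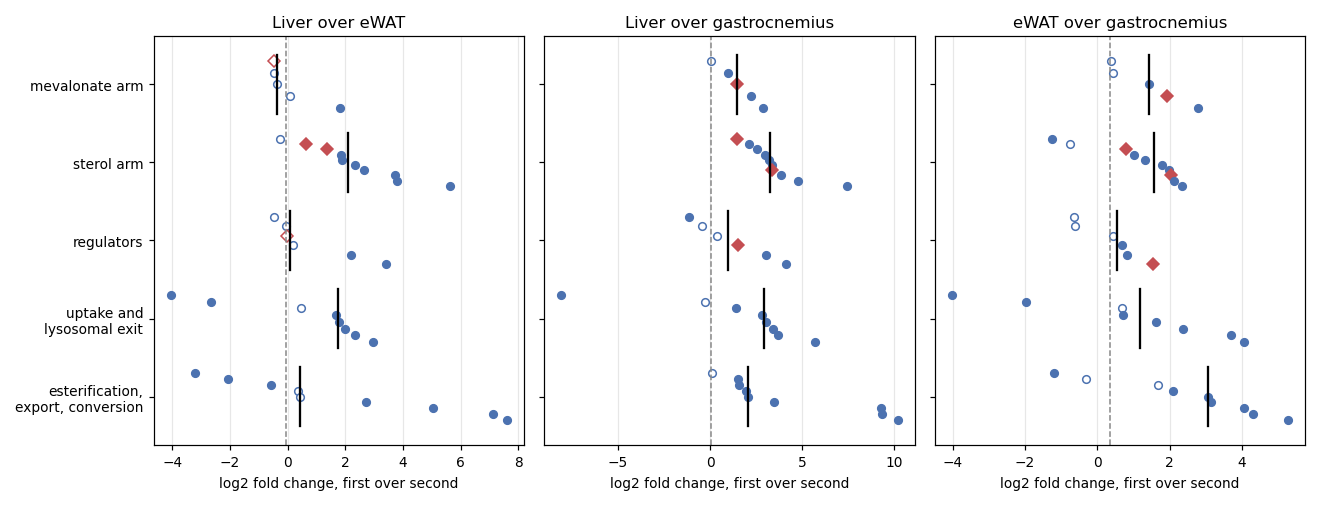
Log2 fold changes between offspring tissues (6 libraries each, joint edgeR fit) for the genes of 5 lists, with the first tissue of each title over the second. Each point is a gene, red diamonds are Hmgcs1, Sqle, Lss and Srebf2, filled symbols have an adjusted p under 0.05, black lines are list medians and the dashed line is the median of all tested genes. The sterol arm has a median of 2.11 liver over eWAT and 3.28 liver over gastrocnemius, and Hmgcs1 and Srebf2 are open symbols in the left panel.

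The last question is whether the genes vary together among the libraries of 1 tissue. Pearson's r was computed on log2 CPM (TMM, prior count of 2) over 6 libraries for each pair of tested genes, which makes 66 pairs in 5 tables. No pair passed the correction over the 66 (exact permutation over 720 orders, smallest adjusted p 0.092 for r and 0.18 for rho, and 0.26 or more for r of every other pair). A pair standing alone could not pass it. The smallest exact permutation p that 720 orders allow, 0.0014 for r, becomes an adjusted p of 0.092 over 66 pairs. The correction could therefore not decide on such a pair. In morula the median r of 21 pairs was 0.43, in liver 0.56 over 3 pairs, in sperm 0.24 over 15, in round spermatids 0.01 over 21 and in eWAT -0.0031 over 6. These medians turn on single libraries: leaving out the HFD library of 11776603 counts gave 0.19 in morula, and leaving out the LFD library of 2560219 counts gave -0.013 in sperm. Over all pairs of tested genes the median lay between -0.0015 and 0.0095 in these tables. Pairs with r above 0.8 were 3 of 15 in sperm, where 5.67% of all pairs exceed it, and 3 of 21 in morula, where 3.04% do. Libraries of a table share their scaling, and sperm and morula pool both diets, with 3 libraries each, too few for an r within a diet. Round spermatids also mix both diets, and liver and eWAT mix both glucose classes. No column ties these libraries to a diet or class, so the part of such groups in r was not tested.

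Morula had the closest group. Hmgcs1 and Sqle had r = 0.97 and rho = 0.77 (exact permutation p = 0.0083 and 0.10, adjusted p of r 0.26), and r = 0.78 without the 2 libraries farthest from the median of Hmgcs1. Hmgcs1 and Srebf2 had r = 0.95 and rho = 0.83 (exact permutation p = 0.015 and 0.058), but r = 0.07 without 2 libraries, so this relation rests on those. For Sqle and Srebf2 r was 0.89 and rho 0.49 (exact permutation p = 0.036 and 0.36), and 0.56 without 2 libraries. The LFD library of 11471251 counts, lowest for all 3 genes, bears on each of these. Idi1 and Fdps ran against each other, with r = -0.88 and rho = -0.89 (exact permutation p = 0.024 and 0.033), and -0.93 without 2 libraries.

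In sperm, Hmgcs1 and Dhcr7 had r = 0.96 and rho = 1 (exact permutation p = 0.0014, the smallest that 720 orders can give, and 0.0028, adjusted p of r 0.092), and r = 0.94 without 2 libraries. Hmgcs1 and Lss had r = 0.88 and rho = 0.77 (exact permutation p = 0.022 and 0.10), and 0.62 without 2 libraries. Sqle did not follow them, with r = -0.48 to Hmgcs1 and rho = -0.26 (exact permutation p = 0.35 and 0.66), a relation that turned to 0.71 without 2 libraries. With library totals the median r of the sperm pairs was 0.81. In round spermatids Idi1 and Srebf2 had r = -0.84 and rho = -0.94 (exact permutation p = 0.024 and 0.017), and -0.91 without 2 libraries, over a range of levels of 27.5 to 30.2 CPM for Idi1 and 40.7 to 48.8 for Srebf2.

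In liver, Hmgcs1 and Srebf2 had r = 0.79 and rho = 0.60 (exact permutation p = 0.065 and 0.24), but -0.15 without 2 libraries. Hmgcs1 of eWAT ran against Lss, with r = -0.72 and rho = -0.66 (exact permutation p = 0.13 and 0.18), and -0.35 without 2 libraries, while Sqle and Srebf2 had r = 0.71 and rho = 0.54 (exact permutation p = 0.11 and 0.30), and 0.84 without 2. The plot of the genes by library shows where the eWAT library of 3512177 counts lay, which was lowest for Hmgcs1 and highest for Sqle, Lss and Srebf2. In gastrocnemius only Hmgcs1 passed the filter, so no pair was formed.

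**Figure D4:**
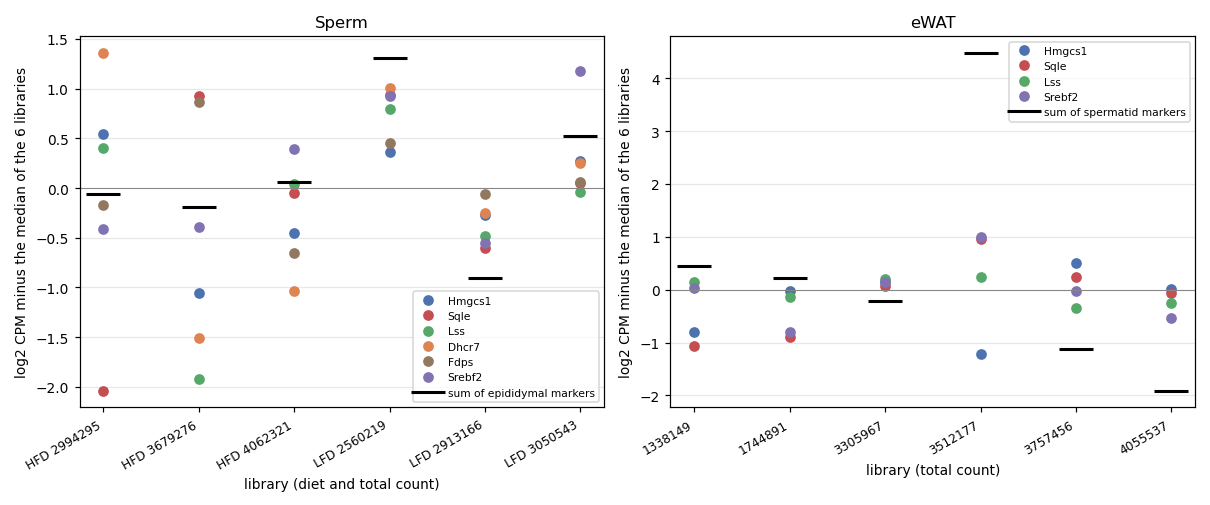
Log2 CPM (TMM) of each tested gene minus its median over the 6 libraries, for sperm (left, by diet and total count) and eWAT (right, by total count), with the summed level of epididymal or spermatid markers as a black bar on the same scale. In sperm Sqle is at its lowest and Dhcr7 at its highest in the HFD library of 2994295 counts. In eWAT the library of 3512177 counts stands out in the markers (64.4 CPM) and in Srebf2 (63.7 CPM, with the next at 34.9), and is lowest for Hmgcs1.

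**Figure D5:**
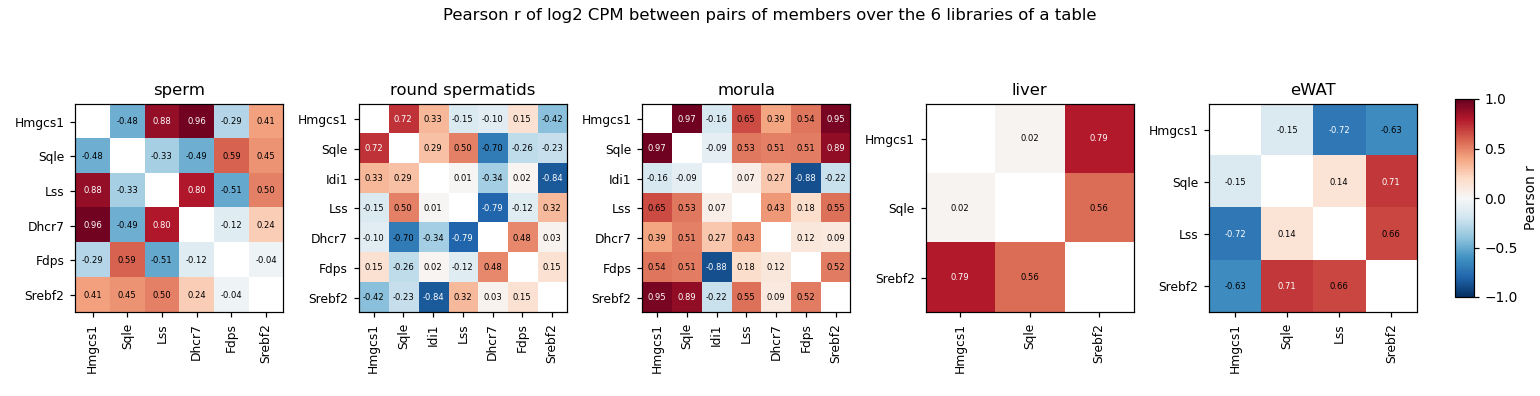
Pearson's r of log2 CPM between pairs of the tested genes over the 6 libraries of a table, from -1 (blue) to 1 (red), for the 5 tables with more than 1 tested gene. In morula Hmgcs1, Sqle and Srebf2 form a red group (0.89 to 0.97) and Idi1 and Fdps a blue pair (-0.88), and in sperm Hmgcs1, Lss and Dhcr7 form a red group (0.80 to 0.96).

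The genes most like the group were ranked by their mean r with its tested genes, over 6 libraries, as a description. In morula the first 5 of 13440 were Prkdc, Gm14513, Agpat5, Rps15a-ps5 and Eno1, at a mean r of 0.65 to 0.64, and Cyp51 stood at rank 19 with 0.63. In sperm the first 4 were Ptpn2, Nxpe4, Fam234b and Edem3, at 0.55 to 0.54. For round spermatids they were Gm12853, 4930526L06Rik, Mras, Gm11439 and Gm43468, at 0.32. Liver gave Pigc, Jup, Tmem63b, Fbxo22 and Gga1, at 0.79 to 0.78 with 3 genes, and Msmo1, a sterol demethylase, stood at rank 7 of 6459 with 0.78. In eWAT they were Snx27, Cab39l, Mt2, G3bp1 and Srp9, at 0.50 to 0.49, and in gastrocnemius, for Hmgcs1 alone, Mdn1, Usp42, Raph1, Igfbp7 and Gnaq, at 0.99 to 0.96. Of the other genes of the lists, 8 of 34 in morula, 8 of 29 in eWAT, 6 of 29 in sperm, 5 of 26 in liver, 2 of 39 in round spermatids and 1 of 10 in gastrocnemius stood in the top 10% of these ranks.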

How the data were processed

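RNA-seq counts of 36 libraries in 6 tables, 6 libraries each, were used. The authors trimmed reads with BBDuk, aligned them to GRCm38 with STAR and counted them per gene with featureCounts, and deposited whole-number counts that are not normalized; the strand setting is not given in the sources used here. Sperm, round spermatid and morula libraries were made with a Nextera kit (75 bp reads) and the offspring tissues with a QuantSeq 3′ kit (50 bp). The round spermatid table lists fewer genes, from another annotation. All columns were mapped to samples or groups, so 0 were left out.

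Groups follow the titles and treatment fields. The 7 genes and the lists of genes and markers were chosen with earlier results of these data known. Genes were filtered with filterByExpr (minimum count 10), scaled by TMM and tested with edgeR 4.0.16 (quasi-likelihood, R 4.3.3), with Benjamini-Hochberg adjustment over all tested genes at a threshold of 0.05. The 2 diets were compared within sperm and within morula, and the 3 tissues in 1 fit. Correlations were tested by exact permutation of 720 orders. Alternatives were DESeq2 1.42.0, other scalings, no filter, each library left out and, in sperm, the label number as a block. The numbers give 2 sperm pairs, whose deviations correlated at 0.10 and -0.14, so they were not taken as pairs. The scripts were tested on simulated data with 200 changed genes. Totals are given in the report, the exact interval of the count ratio of Idi1 and the floors cover counting error only, and the intervals of fold changes come from the edgeR standard errors between libraries. A count of 0 allows 3 counts.

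Of the list genes outside the 7, Cyp51 and Insig1 are named in every table, in each comparison the 2 largest rises and falls among those called, and in each table the 5 genes with the highest mean r. Genes named outside this rule are marked as such, except Msmo1 and Abcg5 in further comparisons, which were added after their values were seen. Some genes that this rule names are not reported here.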

Additional observations from a re-analysis of the deposited data

Results flagged for a closer look

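In 24 groups of 6 libraries, the gap from the highest or lowest library to the next was set against the range of the group, a rule that marks about 1 in 20 groups by chance, and 3 groups were marked. Hmgcs1 in round spermatids was lowest in the library of 31056066 counts, at 42.7 CPM, with the next library at 48.0. Fdps in liver was highest in the library of 2347546 counts, at 3.75 CPM, with the next at 2.00. Srebf2 in eWAT was highest in the library of 3512177 counts, at 63.7 CPM (scaled within eWAT), with the next at 34.9, and this is the library that held spermatid markers at 64.4 CPM. Whether these are linked was not tested.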

How the results depend on the processing

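The count of genes called for diet in sperm, 0 with edgeR, was 3357 with library totals, 41 without a filter, 295 with DESeq2 and 2 with the replicate block, and 0 in every fit with 1 library left out. In morula it was 63 without a filter, 18 with DESeq2 and 0 to 2 with 1 library left out. The cause of these shifts was not tested. Of the 6 genes tested in sperm, none was called with or without the block, and the Fdps change with it was 0.15. Only 2 pairs of sperm libraries share a number, so the block left little with which to test the diets. No paired analysis was possible in morula because the column names of the diets share no number, and those names could not be matched to the numbers in the titles.

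In sperm, Fdps turned sign with RLE (0.11), TMM over nuclear genes (0.00024) and DESeq2 (0.10). With 1 sperm library left out, changes ran from -0.91 to -0.05 for Hmgcs1, -1.15 to -0.49 for Srebf2, -1.001 to 0.32 for Sqle, -0.84 to 0.046 for Lss, -1.89 to 0.14 for Dhcr7 and -0.66 to 0.25 for Fdps. With 1 morula library left out they ran from -0.0052 to 0.13 for Hmgcs1, -0.0012 to 0.25 for Sqle, -0.052 to 0.12 for Lss, -0.050 to 0.045 for Dhcr7 and -0.15 to 0.51 for Srebf2. Idi1 and Fdps of morula kept their sign in all 11 alternatives.

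Liver over eWAT, Srebf2 was 0.0019 with RLE, 0.0048 with DESeq2 and -0.13 to 0.27 with 1 library left out, and Lss -0.30 with library totals. All 4 genes stayed called higher liver over gastrocnemius in 22 alternatives.

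The median r was 0.81 in sperm with library totals, -0.16 to 0.013 in round spermatids with 1 library left out, and in eWAT 0.17 by Spearman's rho and 0.36 with all genes that had a count. The sperm minus morula differences, whose alternatives were chosen after seeing the data, were larger with library totals: -2.26 for Hmgcs1 (exact permutation p 0.02), -2.39 for Sqle (0.03), -2.29 for Lss (0.045) and -2.35 for Fdps (0.005). With 1 library left out they ran from -1.34 to 0.13 for Sqle, -1.08 to 0.10 for Lss and -1.19 to -0.44 for Fdps, the lowest of Fdps without the HFD sperm library of 3679276 counts (exact permutation p 0.01).

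Depth limits Idi1 in sperm, with 40 counts, and Dhcr7, Fdps and Idi1 in the offspring tissues. The sperm intervals of the 6 genes were wide, -1.49 to 0.80 for Hmgcs1, so smaller differences were not detectable.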
